A study of Mus musculus with 20 samples.

Results

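The comparison described here is the main effect of the Rab22a genotype in the abdominal aorta of C57BL/6 mice, taken over both treatments. It uses all 20 libraries of the series: 10 from Rab22a knockout (KO) mice against 10 from wild type (WT) mice. The 4 groups of 5 were KO mice given saline, KO mice given angiotensin II (AngII), WT mice given saline and WT mice given AngII. Both treatments lasted 14 days, and AngII was given at 500 ng/kg/min. Treatment entered the model as an additive term, so each difference is KO minus WT averaged over saline and AngII. The labels give no Cre driver for the knockout, and a piece of whole aorta carries perivascular fat, nerve and blood cells along with the vessel wall. The labels do not say whether each library is 1 animal, so the p-values measure the spread between these libraries.

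Rab22a is a small GTPase of the Rab5 subfamily that sits on early and recycling endosomes. Rab proteins of this subfamily recruit effectors such as the tether EEA1 in their GTP-bound state, and so steer internalised receptors either back to the cell surface or on towards lysosomes. AT1R, the receptor through which AngII contracts smooth muscle and raises blood pressure, is one of the receptors that are internalised after binding their ligand. The title of the study places Rab22a in the recycling of that receptor.

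The targeted gene was examined first, because it checks the genotype labels. Rab22a lies on chromosome 2 (173659760 to 173707343, + strand, mm10). The coding transcript ENSMUST00000029024 has 7 exons, and exon 3 is a coding exon of 82 bases. The annotated transcript ENSMUST00000142820 lacks that exon, and GENCODE lists it as a target of nonsense-mediated decay. The length of exon 3 leaves a remainder of 1 when divided by 3. Read from the same start codon, the frame runs for 194 codons with exon 3, and it meets a stop codon after 68 codons, in exon 5, without it.

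The transcript with exon 3 was at or near 0 in every KO library. It had between 0 and 0.00563 FPKM (fragments scaled to transcript length and library size), with a median of 0.00187, in the 10 KO libraries, against 1.87 to 8.62 FPKM with a median of 6.53 in the 10 WT libraries. The groups did not overlap. On the log2(FPKM + 1) scale the difference was -2.69 (exact permutation of genotype within treatment, two-sided, p = 3.15e-05, adjusted over 3 Rab22a measures p = 4.72e-05; 3.15e-05 is the smallest value that the 63504 arrangements can give). The transcript without exon 3 went the other way, with 7.43 to 11.1 FPKM and a median of 9.12 in KO libraries, against 0.162 to 3.61 FPKM with a median of 1.80 in WT libraries. These groups did not overlap either, and the difference was 1.90 on the log2 scale (same exact permutation test, p = 3.15e-05). Because the 2 moved in opposite directions, the sum over the gene was 9.32 ± 0.96 FPKM in KO libraries and 8.002 ± 2.89 FPKM in WT libraries (SD, n = 10 each; exact permutation p = 0.250). The gene-level value of Rab22a therefore did not separate the genotypes, while these 2 transcripts did so in all 20 libraries. A further coding transcript, ENSMUST00000109110, was near 0 in both genotypes. It had 0 to 0.125 FPKM in KO libraries and 0 to 0.321 FPKM in WT libraries, and these ranges overlapped. WT saline replicate 4 and WT AngII replicate 2 had the lowest Rab22a sums, 2.82 and 2.65 FPKM, against 7.99 FPKM or more in the other WT libraries.

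**Figure D1:**
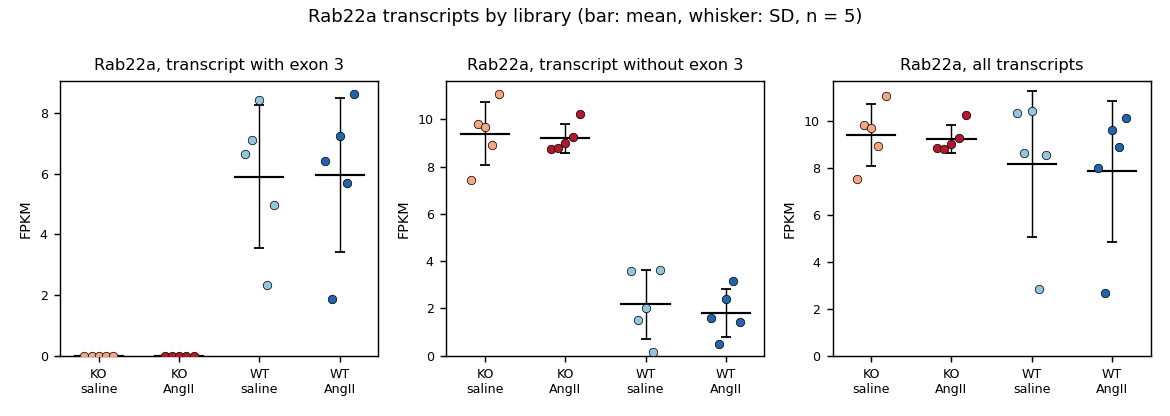
FPKM of the Rab22a transcript with exon 3, of the transcript without it and of all Rab22a transcripts in each library (points), with the mean (bar) and SD (whisker) of 5 libraries per group. The KO libraries sit at 0.00563 FPKM or below for the first transcript and at 7.43 FPKM or above for the second, and the gene sums of the genotypes overlap.

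The libraries implied 68750000 to 77390000 counted reads each, and 12504 to 14342 genes reached 1 FPKM. Several properties of the libraries moved with genotype. KO libraries had 2152 to 2581 pseudogene models above 0, against 3324 to 5228 in WT libraries, and 4267 to 5193 long noncoding models, against 5564 to 7847; neither pair of ranges overlapped (exact permutation p = 3.15e-05 each, adjusted over 6 classes p = 9.45e-05). These are counts of models, not amounts, and counts by class were not planned. The planned count of all models above 0 was 74093 to 83057 in KO libraries and 81734 to 92523 in WT libraries. These ranges overlapped (exact permutation p = 9.45e-05). The pseudogene share of the FPKM total had medians of 9.10% in KO and 7.77% in WT libraries (exact permutation p = 0.171). The long noncoding share had 0.480% and 0.520% (exact permutation p = 0.0599). No class share of the FPKM total passed adjustment over 7 classes (exact permutation, lowest adjusted p = 0.114). Of 1126 olfactory and vomeronasal receptor genes, which act in the nose and were chosen after values were seen, 43 to 77 had a read in KO libraries and 275 to 605 in WT libraries. Their mean level was 0.00455 to 0.00979 FPKM in KO libraries and 0.0106 to 0.0310 FPKM in WT libraries, far below the 1 FPKM that a gene needed to be tested. Each library's dependence on transcript length also differed: the slope of its deviation on log2 length was 0.0674 ± 0.081 in KO libraries and -0.0674 ± 0.056 in WT libraries (SD, n = 10 each; exact permutation p = 0.00117). The labels give no batch, so a difference in library preparation and the genotype cannot be told apart for these measures.

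**Figure D2:**
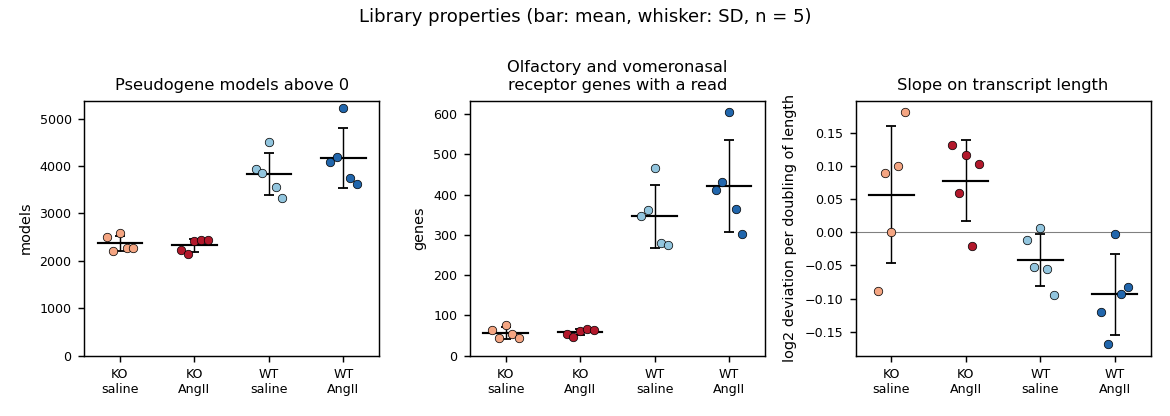
Pseudogene models above 0, olfactory and vomeronasal receptor genes with at least 1 read, and the slope of each library's log2 deviation on transcript length, for each library (points), with the mean and SD of 5 libraries per group. The first 2 measures do not overlap between KO and WT, and the slopes overlap.

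Of 15010 genes tested, 601 differed between the genotypes (limma, Benjamini-Hochberg adjusted p under 0.05), which is 4% of the genes. They comprised 469 that were lower in KO aortas, 3.12% of the genes, and 132 that were higher, 0.879%. Saline alone and AngII alone each called 1 gene, Gm10800 in saline and Srsf9 in AngII. They had 905 and 2917 genes at an unadjusted p under 0.05. All 601 had the same sign in both treatments. They were chosen on the average of these same differences, so the shared sign is no independent support. Of the 601, 239 stayed called whichever single library was left out; without WT AngII replicate 2, 250 genes were called in all. The split between lower and higher depended on the scaling: quantile normalisation called 650 genes (4.33%), 245 lower (1.63%) and 405 higher (2.7%), and TMM-like scaling called 279 lower and 267 higher. The median of all genes was -0.07 as deposited, 0.02 after quantile normalisation and -0.03 after TMM-like scaling.

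The direction of the calls differed along transcript length. In the 20% of genes with the shortest transcripts (107 to 1280 bases), the median difference was -0.25 on the log2 scale, and 268 genes were lower and 8 higher in KO aortas. In the 20% with the longest transcripts (4133 bases or more), the median difference was 0.11, with 4 genes lower and 87 higher. Spearman's rho between difference and length was 0.46 across 14999 genes, a description across genes that share the same libraries. After the trends on transcript length and GC content were removed within each library, a setting chosen after seeing the data, 92 genes passed (0.613%), 52 lower (0.346%) and 40 higher (0.266%), and 69 of these were among the 601. The levels and folds below are as deposited, and where removing the trends ended a call this is said with the gene or its list. A count of called genes in a list stands beside the 4% called among all genes as deposited.

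**Figure D3:**
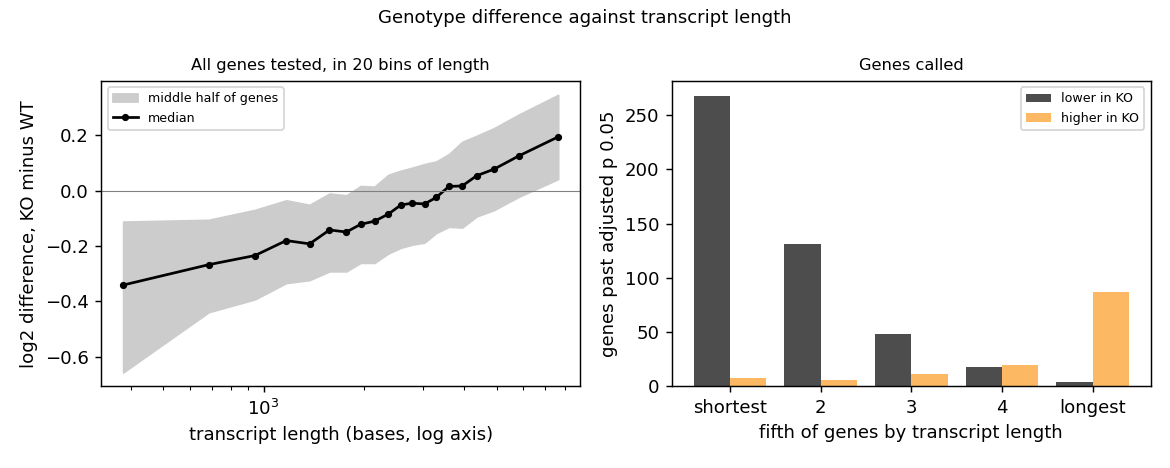
Left, log2 difference (KO minus WT) of all genes against transcript length on a log axis, as the median and the interquartile range in 20 bins. Right, genes past an adjusted p of 0.05 in each 20% of genes by transcript length, with 268 lower and 8 higher in the shortest class and 4 lower and 87 higher in the longest.

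A set of 40 genes was called as deposited and under each of 10 other settings: quantile normalisation, TMM-like scaling, the replicate block, 4 tissue covariates, limma-voom on recovered reads, removal of the length and GC trends, a pseudocount of 0.1, no trend or robust option, library weights, and a mean for each group. Of these, 24 were lower and 16 higher in KO aortas, and 38 were called whichever single library was left out. The set was picked after values were seen, so it is a description and carries no test of its own. It includes Rab5a, the splicing regulators Clk1, Clk4, Hnrnpdl, Hnrnph1 and Rbmx, 3 snoRNA genes, the noncoding RNA Snhg20, the antibody joining chain Jchain and the leptin gene Lep.

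Among the Rab GTPases of the endosomal pathway, Rab5a was higher in KO aortas. Rab5a drives the fusion of incoming vesicles with early endosomes and is a close relative of Rab22a. It ranged from 24.7 to 41.4 FPKM with a median of 33.8 in KO libraries, against 23.7 to 28.7 FPKM with a median of 25.5 in WT libraries, and 9 of 10 KO libraries lay above the highest WT library. Its group means were 32.8 ± 6.1 FPKM in KO saline, 36.3 ± 4.4 in KO AngII, 25.5 ± 1.7 in WT saline and 26.1 ± 1.7 in WT AngII (SD, n = 5 each). The difference was 0.39 ± 0.08 on the log2 scale (SE; limma adjusted p = 0.0125), and it stayed called with the length and GC trends removed (0.41, limma adjusted p = 0.0345). Rab5a lies on chromosome 17 (53479234 to 53507680, + strand).

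The other members of the family did not pass. Rab5c had a median of 71.7 FPKM in KO libraries and 84.0 FPKM in WT libraries (limma adjusted p = 0.142). Rab5b had 8.003 and 7.23 FPKM (KO and WT medians, limma adjusted p = 0.352). Rab31, the closest paralogue of Rab22a, had a median of 13.5 FPKM in KO libraries and 10.9 FPKM in WT libraries (limma adjusted p = 0.338). Over the 19 endosomal Rabs tested, 1 was called, beside 4% called among all genes. Of the 19, 9 were lower and 10 higher, and the median difference was 0.00.

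Eea1, the endosome tether that binds Rab5 and Rab22a, was the 1 called gene among 33 endosomal effectors, beside 4% called among all genes. It had 8.71 to 13.9 FPKM with a median of 10.9 in KO libraries, against 6.23 to 9.38 FPKM with a median of 7.59 in WT libraries. The difference was 0.47 ± 0.10 (SE, log2 scale; limma adjusted p = 0.0160), and all 10 KO libraries lay above the WT median. Eea1 has a long transcript, and with the length and GC trends removed its difference was 0.22 (limma adjusted p = 0.0778). The median of the effectors was 0.06, with 13 lower and 20 higher.

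None of the 9 renin-angiotensin genes tested was called. Agtr1a, which encodes the main AT1R of mouse vessels, had 2.97 to 47.5 FPKM with a median of 14.4 in KO libraries, against 5.70 to 16.5 FPKM with a median of 10.03 in WT libraries. The spread within the KO group was wide, with 5 libraries above the highest WT library and 2 below the lowest (0.40 ± 0.39, SE, log2 scale; limma adjusted p = 0.598). Agtr1b, the second AT1R gene of rodents, had a median of 0.877 FPKM in KO libraries and 1.08 FPKM in WT libraries (limma adjusted p = 0.479). Agt, the precursor of AngII, had 12.1 and 16.4 FPKM (KO and WT medians, limma adjusted p = 0.781), and the peptidase gene Anpep had 14.8 and 15.8 FPKM (KO and WT medians, limma adjusted p = 0.514). Cav1, the coat protein of caveolae, had a median of 55.2 FPKM in KO libraries and 43.3 FPKM in WT libraries (limma adjusted p = 0.164).

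Some regulators of splicing were lower in KO aortas, and most did not pass the test. Of 36 splicing factor genes tested, 33 had a negative difference, 6 were called lower and none was called higher, and the list median was -0.31, against -0.07 over all genes and 61.3% of all genes negative. With the length and GC trends removed the median was -0.32, and 6 members were called. Clk1 and Clk4 encode kinases that phosphorylate SR proteins. Clk1 had 15.8 to 33.6 FPKM with a median of 19.8 in KO libraries, against 29.9 to 53.6 FPKM with a median of 47.3 in WT libraries (-0.97 ± 0.16, SE, log2 scale; limma adjusted p = 0.00318). All 10 KO libraries lay below the WT median, and 7 lay below the lowest WT library.

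Clk4 had a median of 10.9 FPKM in KO libraries and 17.8 FPKM in WT libraries (limma adjusted p = 0.0115). Hnrnpdl and Hnrnph1 encode hnRNP proteins that bind pre-mRNA. Hnrnpdl had 19.2 to 29.4 FPKM with a median of 22.6 in KO libraries, against 28.6 to 41.7 FPKM with a median of 35.3 in WT libraries (-0.55 ± 0.08, SE; limma adjusted p = 0.00253). Hnrnph1 had a median of 21.2 FPKM in KO libraries and 35.5 FPKM in WT libraries (limma adjusted p = 0.0106). Rbm39, a coactivator that also acts in splicing, had 63.9 and 95.4 FPKM (KO and WT medians, limma adjusted p = 0.0222). Srsf9, an SR protein, had 7.11 and 24.8 FPKM (KO and WT medians, limma adjusted p = 0.0310), but its call was lost with the trends removed (limma adjusted p = 0.143). The WT libraries were split in Srsf9. WT saline replicates 2, 3 and 5 had 6.74, 7.99 and 6.13 FPKM, within the KO range of 4.70 to 14.6 FPKM. The other WT libraries had 21.8 to 30.9 FPKM. Sf3b1, a core subunit of the U2 snRNP, moved the other way, with a median of 8.57 FPKM in KO libraries and 4.26 FPKM in WT libraries (1.12 ± 0.30, SE; limma adjusted p = 0.0421); that call was also lost with the trends removed (limma adjusted p = 0.163).

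Several of the called transcripts of these genes keep an intron or are marked for decay. In splicing factor genes, 13 of 42 retained-intron transcripts were called lower, against 3 of 78 coding transcripts. The pattern was not particular to retained introns: 6 of 18 processed transcripts and 3 of 30 marked for nonsense-mediated decay were also called lower. None was called higher in any of these classes. With the length trend removed, 6 of 42 retained-intron and 2 of 78 coding transcripts were called lower. So were 3 of 18 processed transcripts and 2 of 30 marked for decay. The difference between the classes was not tested. For Clk1, the transcript marked for nonsense-mediated decay, ENSMUST00000148330, had 4.16 to 11.6 FPKM with a median of 5.85 in KO libraries, against 10.4 to 21.8 FPKM with a median of 15.01 in WT libraries (limma adjusted p = 0.00194). A retained-intron transcript of Clk1, ENSMUST00000129577, had medians of 1.12 FPKM in KO libraries and 2.95 FPKM in WT libraries (limma adjusted p = 0.00264). The KO and WT ranges did not overlap, but this transcript was picked from called ones. How many of all transcripts lack overlap was not counted. Over all genes, 701 of 25362 transcripts were called, 2.76%, with 590 lower (2.33%) and 111 higher (0.438%). Among 2981 retained-intron transcripts 179 were lower and 5 higher, and among 18645 coding transcripts 284 were lower and 100 higher. Retained-intron transcripts had a median length of 1123 bases and coding ones 2618 bases, and with the length trend removed the called numbers were 50 lower and 13 higher against 49 lower and 67 higher. Retained-intron transcripts made up 2.33% to 3.32% of the FPKM total in KO libraries and 2.57% to 3.57% in WT libraries (exact permutation p = 0.0276, adjusted over 7 classes p = 0.114).

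Several small nucleolar RNAs (snoRNAs), which guide the modification of ribosomal RNA, and some of their host genes were also lower. Of 14 snoRNA genes tested, 6 were called lower and none higher, and with the length and GC trends removed 3 were called lower. Snora24, an H/ACA snoRNA, lies inside its host Snhg8 on the same strand, at chr3:123507937-123508066 (- strand). Its sequence from the GENCODE transcripts is shown because it is the snoRNA with the smallest p; capitals mark the ACA triplet that lies 3 bases from the end.
Snora24: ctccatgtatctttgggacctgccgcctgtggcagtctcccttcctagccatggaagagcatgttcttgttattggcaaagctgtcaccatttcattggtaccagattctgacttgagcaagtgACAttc
Snora24 had 0.716 to 3.51 FPKM with a median of 1.73 in KO libraries, against 3.34 to 7.75 FPKM with a median of 5.62 in WT libraries (-1.34 ± 0.17, SE, log2 scale; limma adjusted p = 0.000738). Its host Snhg8 had a median of 11.4 FPKM in KO libraries and 20.5 FPKM in WT libraries (limma adjusted p = 0.00987), and its call was lost with the trends removed (limma adjusted p = 0.0604). Gm24201, Gm26447 and Gm24616 lie inside Eif4a2. Gm26447 had a median of 1.03 FPKM in KO libraries and 4.01 FPKM in WT libraries, with no overlap, while Eif4a2 itself was not called (-0.12, limma adjusted p = 0.536). Fragments of an unspliced host and of the snoRNA inside it cannot be told apart in these values.

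Among 25 nuclear noncoding RNAs and snoRNA hosts, 5 were called lower and 1 higher. Snhg20 had 5.66 to 16.9 FPKM with a median of 8.43 in KO libraries, against 12.9 to 50.4 FPKM with a median of 32.1 in WT libraries (-1.59 ± 0.22, SE; limma adjusted p = 0.00113). Snhg5 had medians of 7.03 FPKM in KO libraries and 12.3 FPKM in WT libraries (limma adjusted p = 0.0112), and Snhg6 had 12.4 and 16.5 FPKM (KO and WT medians, limma adjusted p = 0.00819). The call of Snhg6 was lost with the trends removed (limma adjusted p = 0.130), while those of Snhg20, Snhg5 and Mir17hg were kept. Mir17hg, the precursor of the miR-17 cluster, had 0.370 and 1.53 FPKM (KO and WT medians, limma adjusted p = 0.0108). Malat1, a long nuclear RNA, was the member called higher, with a median of 79.8 FPKM in KO libraries and 51.8 FPKM in WT libraries (limma adjusted p = 0.0459), but the call was lost with the trends removed (limma adjusted p = 0.237).

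A minority of the genes of protein synthesis and respiration were called lower as deposited, and these genes are short. All 53 ribosomal protein genes tested had a negative difference, with 5 called and a median of -0.44; the median transcript was 865 bases long, against 2473 over all genes. Rps19, of the small subunit, had a median of 211.9 FPKM in KO libraries and 478.3 FPKM in WT libraries (limma adjusted p = 0.0182). Rps28, Rps29, Rps2 and Rpl31 were also called lower. With the length and GC trends removed, none was called, 48 of 53 stayed negative and the median was -0.19. Of 49 nuclear-encoded genes of oxidative phosphorylation, 48 were negative and 4 were called lower (Ndufa2, Ndufs7, Cox5b and Atp5e), with a median of -0.30; with the trends removed the median was -0.10 and none was called. Ndufa2, of complex I, had 90.0 and 135.2 FPKM (KO and WT medians, limma adjusted p = 0.0197).

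Of 10 mitochondrially encoded genes tested, mt-Nd1 was called lower, with a median of 19.01 FPKM in KO libraries and 42.8 FPKM in WT libraries (limma adjusted p = 0.0461; with the trends removed, limma adjusted p = 0.131). Of 24 fatty acid oxidation genes, 23 were negative and none was called (median -0.37). The 3 with the smallest p were Eci2 (50.5 and 66.2 FPKM, KO and WT medians), Eci1 (155.5 and 265.0 FPKM) and Decr1 (79.5 and 120.5 FPKM). No brown adipocyte marker was called (17 tested, median -0.38); Cox8b had 234.2 and 332.7 FPKM, Slc27a2 had 3.55 and 10.04 FPKM and Prdm16 had 2.08 and 1.65 FPKM (KO and WT medians). Of 22 white adipocyte genes, Lep alone was called.

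Lep encodes leptin, the hormone released by fat cells. It had 9.64 to 32.2 FPKM with a median of 20.8 in KO libraries, against 2.28 to 18.8 FPKM with a median of 11.9 in WT libraries (1.04 ± 0.23, SE, log2 scale; limma adjusted p = 0.0169), and 8 of 10 KO libraries lay above the highest WT library. With the length and GC trends removed it stayed called (1.07, limma adjusted p = 0.0487). The white adipocyte genes had a list median of -0.18, which became 0.04 after quantile normalisation, and their summed level was 11508 to 26536 FPKM in KO libraries and 13931 to 22478 FPKM in WT libraries, and these ranges overlapped.

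Genes of lymphocytes had the lowest medians of any list. The median over 29 T and NK cell genes was -1.32, and over 25 B and plasma cell genes it was -1.47, with 28 and 24 members negative. Only Jchain, which joins antibody subunits in plasma cells, passed the test. It had 2.44 to 117.4 FPKM with a median of 12.7 in KO libraries, against 28.8 to 249.1 FPKM with a median of 159.6 in WT libraries (-3.06 ± 0.60, SE; limma adjusted p = 0.0102), and all 10 KO libraries lay below the WT median. Ighg1, an antibody heavy chain gene outside the lists, had medians of 0.404 FPKM in KO libraries and 36.3 FPKM in WT libraries (limma adjusted p = 0.0154), and Ighv12-3 had 0.0736 and 1.52 FPKM (KO and WT medians, limma adjusted p = 0.0419; with the trends removed, limma adjusted p = 0.152). In T and NK cells, Zap70 had 1.74 and 8.35 FPKM, Il7r had 2.70 and 9.50 FPKM and Lat had 5.19 and 25.7 FPKM (KO and WT medians), and none of these passed (limma adjusted p between 0.146 and 0.156).

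The level of lymphocyte genes had a wider range in KO libraries. The summed level of the B and plasma cell genes was 38.7 to 10248 FPKM in KO libraries and 872.7 to 4293 FPKM in WT libraries. KO saline replicates 1 and 3 had the highest levels of the KO group, and without them 3148 genes were called, 2591 lower and 557 higher. In bulk tissue, fewer cells of a type and less RNA per cell cannot be told apart. With 4 covariates for skeletal muscle, white fat, B and plasma cell and nerve levels, 455 genes were called, of which 237 were among the 601.

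Among myeloid genes, Gpnmb, a glycoprotein of lipid-laden macrophages, was called lower, with medians of 11.2 FPKM in KO libraries and 19.7 FPKM in WT libraries (limma adjusted p = 0.0311; with the trends removed, limma adjusted p = 0.0390); 22 of 27 macrophage genes were negative, with a median of -0.32. Ms4a4a, a membrane protein of macrophages, was higher, with 3.39 to 16.3 FPKM and a median of 7.43 in KO libraries, against 0.837 to 6.72 FPKM with a median of 1.97 in WT libraries (1.46 ± 0.28, SE; limma adjusted p = 0.00830). Nfkbia, the inhibitor of NF-kappaB, was the 1 called gene of 29 inflammatory genes, with 41.6 and 92.9 FPKM (KO and WT medians, limma adjusted p = 0.0348; with the trends removed, limma adjusted p = 0.113). No interferon response gene of 34 was called; Rsad2 had 7.09 and 4.90 FPKM, Psmb8 had 21.1 and 55.4 FPKM and Ifit3b had 3.92 and 2.25 FPKM (KO and WT medians).

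Few genes of the vessel wall passed the test. Of 27 smooth muscle contractile genes, only Ppp1r14a, the inhibitor of myosin phosphatase, was called; it had medians of 53.3 FPKM in KO libraries and 94.0 FPKM in WT libraries (limma adjusted p = 0.0497), and the call was lost with the trends removed (limma adjusted p = 0.305). The list median was -0.11 and became 0.04 after quantile normalisation. In 45 extracellular matrix genes, Ccn1, a matricellular protein, was higher, with medians of 58.9 FPKM in KO libraries and 27.6 FPKM in WT libraries (1.16 ± 0.32, SE; limma adjusted p = 0.0490; with the trends removed, limma adjusted p = 0.0728). Lum, the proteoglycan lumican, was also higher, with 55.4 and 33.2 FPKM (KO and WT medians, limma adjusted p = 0.0303; with the trends removed, limma adjusted p = 0.0505). Lum was also the 1 called gene of 19 adventitial fibroblast genes. None of 25 endothelial genes was called; Pecam1 had 80.2 and 61.6 FPKM, Cldn5 had 53.2 and 85.0 FPKM and Plvap had 78.0 and 112.4 FPKM (KO and WT medians).

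Stress genes were mixed. Of 34 immediate early and heat shock genes, 4 were called lower. Jund, an AP-1 subunit, had 66.6 and 106.4 FPKM (KO and WT medians, limma adjusted p = 0.0147), and Gadd45g, a growth arrest gene, had 24.2 and 51.5 FPKM (limma adjusted p = 0.0141). Klf2, a flow-responsive factor of endothelium, had 28.6 and 46.4 FPKM (KO and WT medians, limma adjusted p = 0.0322), and the co-chaperone Dnajb1 had 15.5 and 23.8 FPKM (limma adjusted p = 0.0254). Of these 4 only Dnajb1 was still called with the trends removed (limma adjusted p = 0.0269). In the unfolded protein response, Ddit3 was lower, with 21.3 and 28.6 FPKM, and the chaperone Hyou1 was higher, with 19.5 and 11.6 FPKM (KO and WT medians, limma adjusted p = 0.0344 and 0.0340), and neither call held with the trends removed. Ddit4, an inhibitor of mTORC1, had 39.5 and 97.2 FPKM (KO and WT medians, limma adjusted p = 0.0321; with the trends removed, limma adjusted p = 0.0992).

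In the circadian clock list (18 tested), Clock and Cry2 were higher. Cry2 had 16.2 and 12.4 FPKM (KO and WT medians, limma adjusted p = 0.0194), and Clock had 8.67 and 6.27 FPKM (limma adjusted p = 0.0378); with the trends removed neither passed (limma adjusted p = 0.0678 and 0.166). No cholesterol synthesis gene of 23 was called, though 18 were positive; Idi1 had 25.05 and 18.1 FPKM, Stard4 had 10.3 and 7.18 FPKM and Ebp had 15.5 and 18.1 FPKM (KO and WT medians). No cell cycle gene of 32 was called, with 30 negative; Pcna had 33.3 and 51.3 FPKM, Bub1b had 0.992 and 2.45 FPKM and Birc5 had 0.816 and 2.65 FPKM (KO and WT medians).

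No marker of neighbouring tissue was called, and several had wide ranges within a genotype. Of 25 skeletal muscle genes, Tnnt1 ranged from 0.227 to 22.9 FPKM in KO libraries and from 0.623 to 132.0 FPKM in WT libraries, and Myh7 and Tnnc1 varied likewise. Of 28 nerve genes, 19 were positive; Cdh19, of Schwann cells, had 13.0 and 6.17 FPKM, Kcna1 had 6.85 and 3.49 FPKM and Scn7a had 0.928 and 0.194 FPKM (KO and WT medians). Of 7 adrenal, kidney and liver genes, Alb had 8.86 and 2.62 FPKM, Ttr had 0.896 and 0.399 FPKM and Serpina1a had 0.948 and 0.509 FPKM (KO and WT medians). Of 6 mesothelial genes, Krt18 had 1.44 and 2.21 FPKM, Krt19 had 0.824 and 1.10 FPKM and Upk3b had 0.133 and 0.581 FPKM (KO and WT medians).

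**Figure D4:**
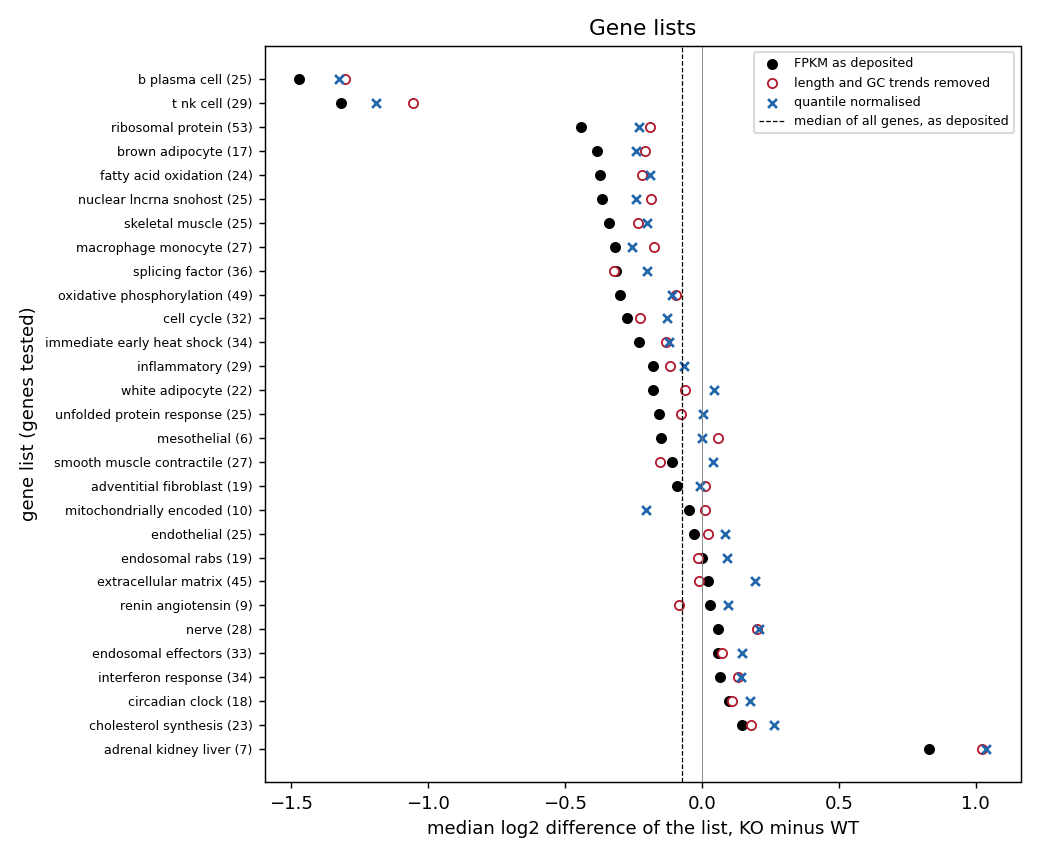
Median log2 difference (KO minus WT) of each gene list as deposited (filled), with length and GC trends removed (open) and after quantile normalisation (crosses), beside the median of all genes (dashed line). Lymphocyte lists lie farthest to the left under all 3, while the ribosomal protein list moves from -0.44 to -0.19 when the trends are removed.

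The largest increases outside these lists, after Ms4a4a, included Kcna2, a potassium channel subunit (medians of 1.60 FPKM in KO libraries and 0.318 FPKM in WT libraries), Nipbl, the cohesin loader (9.45 and 3.22 FPKM), Usp34, a deubiquitinase (13.8 and 6.95 FPKM), Ermp1, an endoplasmic reticulum peptidase (10.6 and 4.91 FPKM) and Myof, a membrane repair protein (9.83 and 4.50 FPKM). These 5 were not called with the trends removed. Hmbox1, a telomere-binding homeobox protein, had 4.62 and 1.56 FPKM (KO and WT medians, limma adjusted p = 0.00677) and stayed called (limma adjusted p = 0.00442). Gucy1a2, a subunit of the nitric oxide receptor guanylate cyclase, had 2.17 and 0.798 FPKM (KO and WT medians, 0.75 ± 0.16, SE, log2 scale; limma adjusted p = 0.0171) and also stayed called (limma adjusted p = 0.0245). Among predicted loci, Gm22009, Gm23119, 5730409E04Rik and Gm2007 were higher and stayed called.

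Of the largest decreases, Hectd4, a HECT-type ubiquitin ligase, had medians of 0.836 FPKM in KO libraries and 3.11 FPKM in WT libraries (-1.02 ± 0.19, SE; limma adjusted p = 0.00819) and stayed called with the trends removed. Bola1, a mitochondrial protein, had 5.88 and 12.1 FPKM, and Snora68 had 1.06 and 3.28 FPKM (KO and WT medians), and both calls were lost. The lowest value of any gene belonged to the predicted gene Gm10800 on chromosome 2 (98666547 to 98667301, - strand), with 0 to 0.743 FPKM in KO libraries and 7.92 to 112.5 FPKM in WT libraries (-4.49 ± 0.39, SE; limma adjusted p = 6.05e-06). It held 114 reads over the 10 KO libraries and 18454 over the 10 WT libraries. Other predicted genes share sequence with it, so reads can be split among them. Gm10801 beside it holds 39.6% of the 21-base words of Gm10800, and it had at most 13 reads in any KO library and 1 to 929 in WT libraries. Gm26870 holds 36.1% of them and had at most 9 reads in any KO library and 15 to 222 in WT libraries. Gm10717 holds up to 28.8% and Gm11168 up to 27.5%; both had 0 reads in KO libraries, against 15 to 219 and 14 to 111 in WT libraries. The level of Gm10800 moved with genotype in the same direction as the pseudogene and receptor gene counts above, and their part in it was not tested.

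In 24 genes the 10 KO values did not overlap the 10 WT values (0.16% of the genes); 20 were lower (0.133%) and 4 higher (0.0266%) in KO aortas. The 4 higher genes were Manea, an endomannosidase of the Golgi, Mindy2, a deubiquitinase, Spop, a substrate adaptor of a ubiquitin ligase, and Selenot, a selenoprotein of the endoplasmic reticulum. Manea had 7.87 to 10.6 FPKM with a median of 9.40 in KO libraries, against 4.42 to 6.99 FPKM with a median of 5.73 in WT libraries (0.63 ± 0.08, SE; limma adjusted p = 0.000769). Spop had 60.6 to 76.6 FPKM with a median of 68.1 in KO libraries, against 51.7 to 60.3 FPKM with a median of 57.8 in WT libraries (0.27 ± 0.06, SE; limma adjusted p = 0.0169). Both stayed called with the trends removed, and Mindy2 and Selenot did not (limma adjusted p = 0.0818 and 0.0539).

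The lower genes without overlap included Polr2f, Polr2i and Polr2j, subunits of RNA polymerase II, and Paf1, of the elongation complex that travels with it. Polr2f had 19.7 to 38.2 FPKM with a median of 29.4 in KO libraries, against 38.8 to 69.7 FPKM with a median of 46.1 in WT libraries (limma adjusted p = 0.00745). These 4 have transcripts of 650 to 1538 bases, and none was called with the trends removed (limma adjusted p between 0.0843 and 0.424). Rpp21, a protein subunit of RNase P, had 9.32 to 15.1 FPKM with a median of 13.0 in KO libraries, against 16.5 to 24.7 FPKM with a median of 21.4 in WT libraries (-0.75 ± 0.09, SE; limma adjusted p = 0.000349), and it stayed called (limma adjusted p = 0.00275). Hypk, a partner of the N-terminal acetyltransferase, had medians of 14.4 FPKM in KO libraries and 20.6 FPKM in WT libraries and stayed called (limma adjusted p = 0.0165).

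Efna1 and Cd164 were further genes of the set of 40. Efna1, the ligand ephrin-A1, had 10.2 to 16.9 FPKM with a median of 13.6 in KO libraries, against 6.28 to 12.1 FPKM with a median of 9.09 in WT libraries (0.52 ± 0.11, SE; limma adjusted p = 0.0168). Cd164, a sialomucin of endosomes and lysosomes, had 102.3 to 123.2 FPKM with a median of 111.7 in KO libraries, against 81.4 to 111.7 FPKM with a median of 88.1 in WT libraries (0.31 ± 0.07, SE; limma adjusted p = 0.0160).

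**Figure D5:**
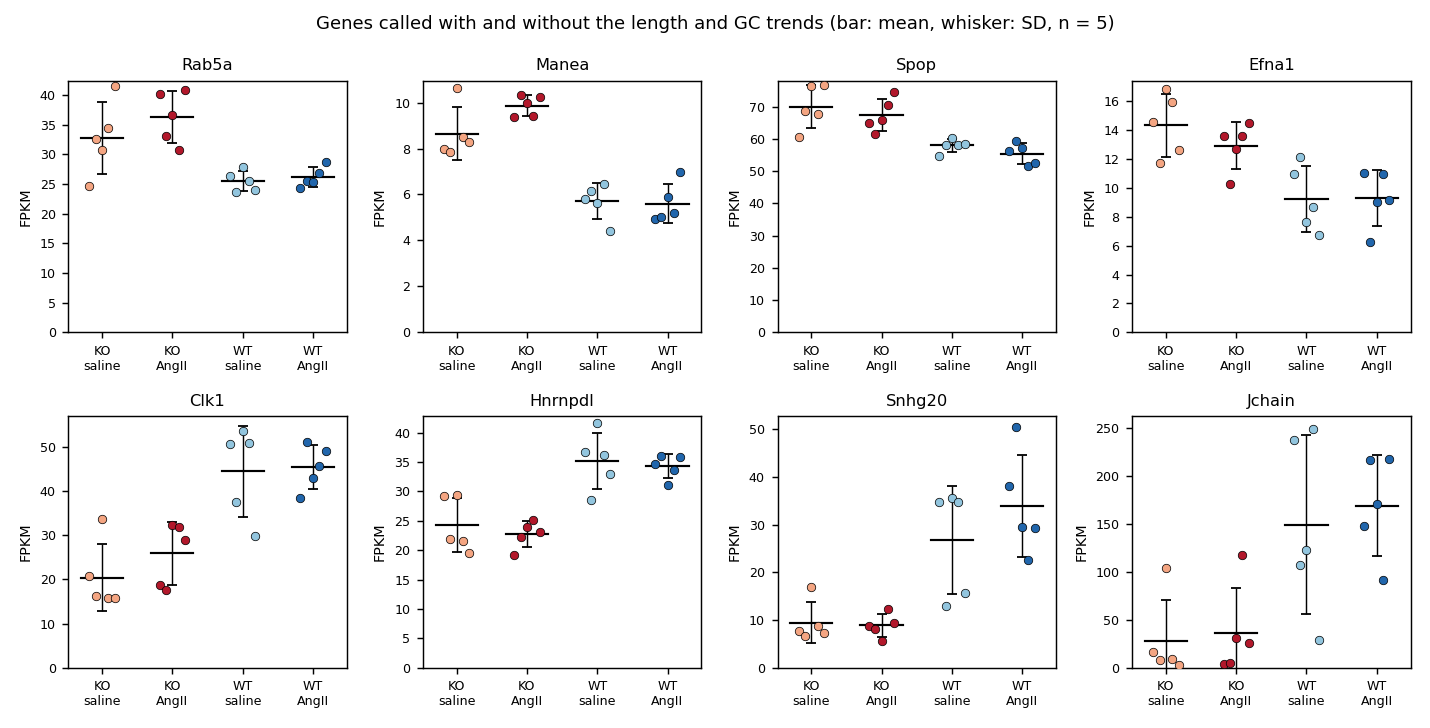
FPKM of 8 genes of the set of 40 in each library (points), with the mean and SD of 5 libraries per group. Rab5a, Manea, Spop and Efna1 are higher and Clk1, Hnrnpdl, Snhg20 and Jchain lower in KO libraries under both treatments, with no overlap between genotypes for Manea and Spop.

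Within 5 Mb of Rab22a, 68 genes were tested and 6 were called, 8.82% against 4% of all genes. Among them, Atp5e and Gm14438 were lower and Gm2007, Zfp971 and Zfp973 higher. The zinc finger gene Zfp971 had 5.04 to 8.82 FPKM with a median of 7.43 in KO libraries, against 3.25 to 5.98 FPKM with a median of 4.89 in WT libraries (0.52 ± 0.12, SE; limma adjusted p = 0.0222). Zfp973 had medians of 4.89 FPKM in KO libraries and 2.70 FPKM in WT libraries (limma adjusted p = 0.0303). With the trends removed, 2 of the 68 were called, Zfp971 and Gm2007. Zfp971 and Zfp973 belong to a cluster of related zinc finger genes, so reads may be split between them.

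Some genes changed in 1 transcript and not in their sum. The 6 called transcripts with the smallest p whose gene was not called were the Rab22a transcripts with and without exon 3 and 1 each of Spcs1, Mt1, H3f3b and Cox7c. A retained-intron transcript of Spcs1, a signal peptidase subunit, had medians of 0.611 FPKM in KO libraries and 1.60 FPKM in WT libraries (limma adjusted p = 0.000156). Transcript ENSMUST00000211807 of the metallothionein Mt1 had 0.750 and 4.09 FPKM (KO and WT medians, limma adjusted p = 0.000189), and a processed transcript of the histone H3f3b had 3.204 and 8.53 FPKM (limma adjusted p = 0.000189). ENSMUST00000132233 of Cox7c, of cytochrome c oxidase, had 2.41 and 5.97 FPKM (KO and WT medians, limma adjusted p = 0.000407). All 4 stayed called with the length trend removed. None of their ranges overlapped between genotypes, but they were picked for a small p on these same values. The share of all transcripts without overlap was not counted.

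The additive model was set beside a model with an interaction term. No gene of 15010 passed the test for a genotype difference that changed with treatment (limma adjusted p under 0.05). At an unadjusted p under 0.05 there were 501, which is 3.34% of the genes. With 5 libraries per group, changes may have been missed. Some list medians differed between saline alone and AngII alone, as for skeletal muscle (0.57 and -0.87) and brown adipocyte genes (-0.72 and 0.06). Others were closer, as for circadian clock genes (0.11 and 0.07). These differences were not tested.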

How the data were processed

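The authors' deposited tables hold FPKM per transcript model for each of the 20 libraries of ribosomal RNA depleted total RNA; no aligner or counter is named in the sources used here, and the submitters' processing notes name mm10 and limma. Values times transcript length were whole multiples of 1 step per library (99.4% to 99.6% of low values within 0.1 read), which gives the reads. Models were matched to GENCODE M21 and transcripts summed per gene. No 2 of the 190 library pairs held identical values. Genes that reached 1 FPKM in 5 or more libraries entered a fit with limma 3.58.1 in R 4.3.3 on log2(FPKM + 1) with genotype and treatment as additive terms, trend and robust options and Benjamini-Hochberg adjustment over all genes; fold changes of low genes are understated on this scale. Limma-voom on the recovered reads, an alternative, called 505 genes. The limma fit and the permutation function were tested on simulated data. Single values were tested by exact permutation of genotype within treatment (Python 3.11.15). Length is the expression-weighted transcript length, and trends were removed per library by lowess. The text names, of the called genes averaging 1 FPKM or more, the 12 with the greatest increase and the 12 with the greatest decrease, up to 4 predicted loci each way, up to 6 called members of each list or else 3 with the smallest p, 7 preset genes of the receptor pathway, called genes near Rab22a and 6 transcripts; Rab5b, Rab5c, the set of 40 and the genes without overlap were added after values were seen. The members and lists were chosen with earlier results of these data known. A list of sex-linked genes was not used, but no chromosome was left out of the fits. Some items are not reported here.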

Additional observations from a re-analysis of the deposited data

Results flagged for a closer look

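In 600 groups of 5 libraries, 40 had 1 value set far from the other 4; chance flags about 1 in 20 such groups. In KO saline libraries, replicate 4 was high in the skeletal muscle genes Tnnt1 (22.9 FPKM), Myh7 (15.4 FPKM) and Tnnc1 (14.99 FPKM), replicate 3 was high in Manea (10.6 FPKM) and Gm5586 (1.16 FPKM), and replicates 1, 2 and 5 were low in Myof (2.76 FPKM), Ppp1r35 (4.77 FPKM) and Lage3 (15.5 FPKM). In KO AngII libraries, replicate 1 was high in Tnnt1 (16.8 FPKM) and Myh7 (10.2 FPKM) and low in Anpep (11.05 FPKM). Replicate 2 was high in Krt18 (6.73 FPKM) and Scn7a (4.75 FPKM), low in Usp34 (9.42 FPKM) and listed at 0 for Agt (0 FPKM). Replicate 3 was high in Fau-ps2 (0.0721 FPKM) and low in Tmem256 (15.2 FPKM), replicate 4 was high in Ighg1 (18.5 FPKM) and Fam98b (16.2 FPKM), and replicate 5 was high in Gm10801 (0.344 FPKM) and 4930578C19Rik (3.58 FPKM).

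In WT saline libraries, replicate 4 was low in Rab22a (2.82 FPKM) and Ifit3b (0.285 FPKM) and high in Rps28 (194.5 FPKM). Replicates 2 and 5 were low in Pecam1 (31.3 FPKM) and Stard4 (4.68 FPKM). In WT AngII libraries, replicate 5 was low in Ndufs7 (119.9 FPKM), Eci1 (128.1 FPKM), Decr1 (63.9 FPKM) and Ddit3 (25.5 FPKM) and high in Birc5 (9.05 FPKM). Replicate 3 was high in Gm10800 (68.6 FPKM) and in models above 0 (92523, against 84713 to 86511 in the others) and low in Snora68 (1.22 FPKM), Ebp (14.1 FPKM) and Rpp21 (16.5 FPKM). Replicate 2 was low in Rab22a (2.65 FPKM) and Lep (10.6 FPKM), and replicates 1 and 4 were high in Ccn1 (72.3 FPKM) and Ermp1 (5.75 FPKM). Outside the annotated genes, 8760 of 16637 unannotated models were tested in the same way. Of these, 101 differed between genotypes (limma adjusted p under 0.05), 92 lower and 9 higher in KO aortas. That is 1.15% of the models tested, beside 4% of the annotated genes.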

How the results depend on the processing

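The 601 genes called became 1088 without a filter (of 42890 genes), 3197 with library weights, 1 in saline alone and 1 in AngII alone. Among settings chosen after seeing the data, the count was 154 with the length trend removed, 92 with length and GC trends removed, 3148 without KO saline replicates 1 and 3, and 2240 without the 2 libraries of each genotype highest in B and plasma cell markers. Leaving out 1 library at a time gave 250 (without WT AngII replicate 2) to 1120 genes (without KO saline replicate 3), and WT AngII replicate 1, KO AngII replicates 1 and 3, WT AngII replicate 4 and KO saline replicates 1 and 5 also moved it by over 1.5 times (278, 329, 268, 315, 1051 and 323). Every gene shared between the 601 and any setting kept its direction. The 701 transcripts became 1896 with library weights, 7 in saline alone, 5 in AngII alone and 230 with the length trend removed, and 377 to 1134 with 1 library left out. The interaction count was 0, and 1 without a filter and 1 without the B-cell-high libraries; it was 0 in each fit with 1 library left out. The Rab22a transcript with exon 3 kept its direction and call under every setting, -2.84 to -2.62 with 1 library left out. The difference in models above 0 was -7046 per library (exact permutation p = 9.45e-05), -7665 to -6356 with 1 library left out, and -1160 for models above 1 FPKM (exact permutation p = 0.0933). Of 90 named genes that were called (those without overlap left aside), 36 lost the call when some single library was left out, with a highest limma adjusted p of 0.0513 to 0.0973, in 29 of them without WT AngII replicate 2; they include Zfp971, Zfp973, Usp34, Dnajb1, Lum, Srsf9, Nipbl, Gpnmb, Ddit4, Klf2, Hyou1, Ddit3, Bola1, Nfkbia, Kcna2, Clock, Myof, Sf3b1, Malat1, Ppp1r14a, mt-Nd1, Ccn1, Atp5e, Ndufs7, Cox5b and 4 ribosomal protein genes. The causes of these shifts were not tested. Same-numbered libraries did not pair: 10 of 30 pairs had a correlation of deviations over 0.1, with a range of -0.52 to 0.41, and 3 of 20 libraries correlated best with their own number; the replicate block called 408 genes and 496 transcripts. Signs turned in AngII alone for Krt18 (0.30), Upk3b (0.76) and Krt19 (0.33), and with tissue covariates for Agtr1a (-0.00099), Bub1b (0.096) and Agt (0.12). They also turned with the length trend removed for Krt19 (0.031) and Gm5586 (0.069). With length and GC trends removed, those of Krt18 (0.044), Krt19 (0.087) and Gm5586 (0.048) turned. Without KO saline replicates 1 and 3 that of Krt19 turned (0.029), and without KO AngII replicate 2 that of Agt (-0.41 to 0.098 with 1 library left out). Krt18, Krt19, Upk3b, Agtr1a, Bub1b and Agt were uncalled as deposited. The 10 KO values of Gm5586 all lay below its 10 WT values as deposited.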
